A study of Mus musculus with 22 samples.

Results

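The circadian clock and its output were followed in mouse lung through 10 genes: the repressors Per1, Per2, Per3, Cry1 and Cry2, the output factors Dbp and Tef, the nuclear receptors Nr1d1 and Nr1d2, and the activator Npas2. They were taken as a named list, and the RefSeq accessions of the array identified all 10 of them among 20018 named genes. They are covered by 11 of 55681 probes, with 2 probes for Dbp and 1 for each of the other members. RNA of the right lung came from 22 female C57BL/6 mice, 5 given vehicle alone and 6, 5 and 6 given 18, 54 and 162 µg of Mitsui7, a multiwalled carbon nanotube. The vehicle was saline with lavage fluid. Every mouse, controls included, was 8 weeks old when the experiment began, was anaesthetized with Hypnorm and Dormicum, received 1 intratracheal instillation of 40 µl and was killed after 24 h. Housing was a 12-h light and 12-h dark cycle, and the clock time at which mice were instilled and killed is not given in the sources used here. Each lung was hybridised against the same reference RNA, a mixture from mouse cell lines, so that a value is the log2 ratio of lung (Cy5) to reference (Cy3) after loess normalization, and the reference is no control group.

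The mammalian clock is a loop of transcription. The proteins of Arntl (also called Bmal1) and Clock, or its relative Npas2, bind E-box sequences and switch on the Per and Cry genes, whose products then repress them. Nr1d1 and Nr1d2, the REV-ERB receptors, are likewise switched on through E-boxes and repress Arntl, so that Arntl peaks when they are low. Dbp, Tef and Hlf encode related factors that act on D-box sequences and carry the rhythm to output genes, and Nfil3 is a repressor at those sequences. In lung, as in other organs, these genes cycle over the day in most cell types, and Per1 also answers directly to glucocorticoids and to cAMP signalling.

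Cy5 signal over local background had array medians between 1.18 and 2.50, and the median array of a group was at 2.00 for controls and at 1.45, 1.49 and 1.72 for the doses in rising order. The arrays lay on 7 slides, each holding more than 1 dose group, and slide was a term in every limma test but not in the permutation tests of correlation. The number of arrays limits the precision. A difference was called where limma gave an adjusted p of at most 0.05 over all probes, the change was at least 1.5-fold and the probe was above the negative controls. Lung identity was plain from its markers: the 6 type II cell markers had a mean log2 ratio between 5.06 and 6.54 in the 22 lungs.

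In a test over all 4 groups, Per1, Per2, Cry2 and Tef differed (limma F test over the 3 doses, adjusted p = 0.0119, 0.00161, 0.0131 and 0.00706), so that 4 of 10 members passed against 7.01% of all expressed probes. The other members did not pass, with an adjusted p of 0.147 for Nr1d2, 0.164 for Nr1d1, 0.194 for Npas2, 0.217 for the brighter Dbp probe, 0.567 for Per3 and 0.906 for Cry1. The mean level of Per1 and Per2 was lowest at 18 µg, followed by control, 54 µg and 162 µg, and that of Tef and Cry2 was lowest at 18 µg, followed by 54 µg, control and 162 µg. No pair of neighbours in these orders was called, although several of their differences exceeded 2 standard errors and Cry2 at 162 µg lay above every control.

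**Figure D1:**
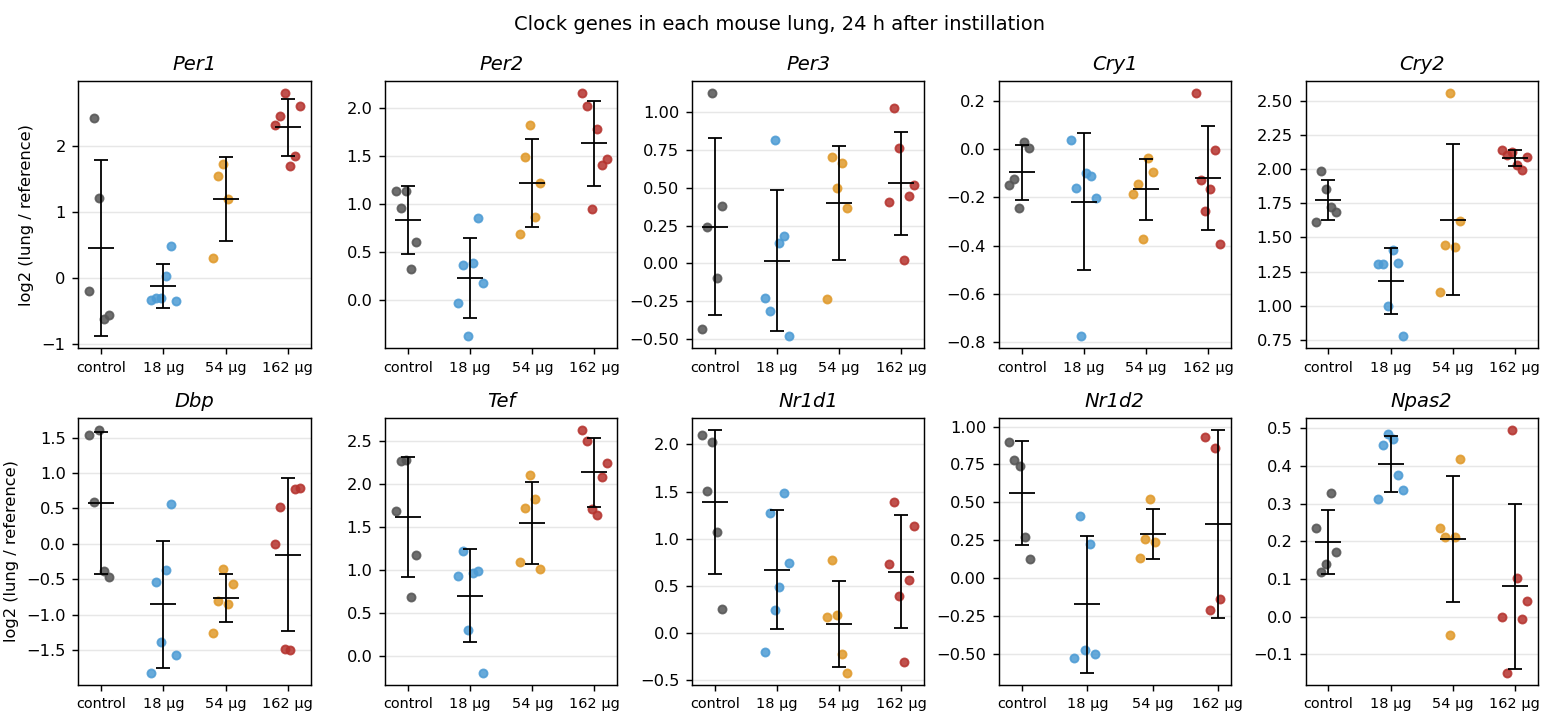
Log2 ratio of lung to reference RNA (vertical axis) of the 10 clock genes by dose group (horizontal axis), each point 1 mouse, with the group mean and SD as black bars. For Per1, Per2, Cry2 and Tef the 6 mice at 162 µg all lie above the 6 mice at 18 µg. Dbp, Per1 and Nr1d1 spread most widely within groups.

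The clearest differences lay between the lowest and the highest dose. At 162 µg, Per1, Per2, Tef and Cry2 were all called higher than at 18 µg, which makes 4 of 10 members called where 3.46% of expressed probes were called. For these 4 genes the groups did not overlap, against 2.24% of expressed probes without overlap in either direction.

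Per1 encodes the Period protein that responds fastest to outside signals. Its log2 ratio at 18 µg had a lowest, median and highest value of -0.34, -0.30 and 0.49, and at 162 µg of 1.70, 2.39 and 2.80. All mice at 162 µg were thus above all mice at 18 µg. The difference was 2.21 on the log2 scale (standard error 0.39, adjusted p = 0.00431), or 4.63-fold. On each of the 5 slides that held both doses it was positive, with 1.35 as the smallest.

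Per2, a second Period repressor of the core loop, had a log2 ratio of -0.37, 0.27 and 0.85 (lowest, median, highest) at 18 µg and of 0.95, 1.62 and 2.15 at 162 µg. The groups came close to each other at one mouse each but did not overlap. The difference was 1.31 (standard error 0.17, adjusted p = 4.22e-04), or 2.48-fold, and it lay between 0.55 and 1.79 on the shared slides.

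Tef encodes a D-box activator. Its log2 ratio was -0.20, 0.95 and 1.23 (lowest, median, highest) at 18 µg and 1.65, 2.17 and 2.64 at 162 µg, with no overlap. The difference was 1.36 (standard error 0.21, adjusted p = 0.00155), or 2.56-fold, and ranged from 0.68 to 2.45 on the shared slides.

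Cry2, a Cryptochrome repressor, spread least among the called members. Its log2 ratio was 0.78, 1.31 and 1.41 (lowest, median, highest) at 18 µg and 1.99, 2.10 and 2.14 at 162 µg. The 6 mice at 162 µg were nearly alike, with an SD of 0.06, whereas those at 18 µg had an SD of 0.24. The difference was 0.87 (standard error 0.15, adjusted p = 0.00363), or 1.82-fold, and lay between 0.62 and 1.31 on the shared slides.

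The remaining members were not called between these doses. The largest difference among them was that of Dbp at 0.58 (standard error 0.45, adjusted p = 0.610), followed by Nr1d2 at 0.52 (0.19, adjusted p = 0.156, over 5 and 4 mice) and Per3 at 0.32 (0.18, adjusted p = 0.404). Npas2, well above background on 2 of 6 arrays at 18 µg and 1 of 6 at 162 µg, was -0.31 (0.09, adjusted p = 0.0688). The differences of Nr1d1 and Cry1 were within 1 standard error of 0. The median over the 10 members was 0.55, beside -0.01 over all expressed probes. Each of the 4 calls held in limma with any 1 of the 22 mice left out. Without any normalization Tef remained at 1.54 but had an adjusted p of 0.0519, and only Per1 was still called. With arrays centred on their median Cry2 alone was lost (0.92, limma adjusted p = 0.122).

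**Figure D2:**
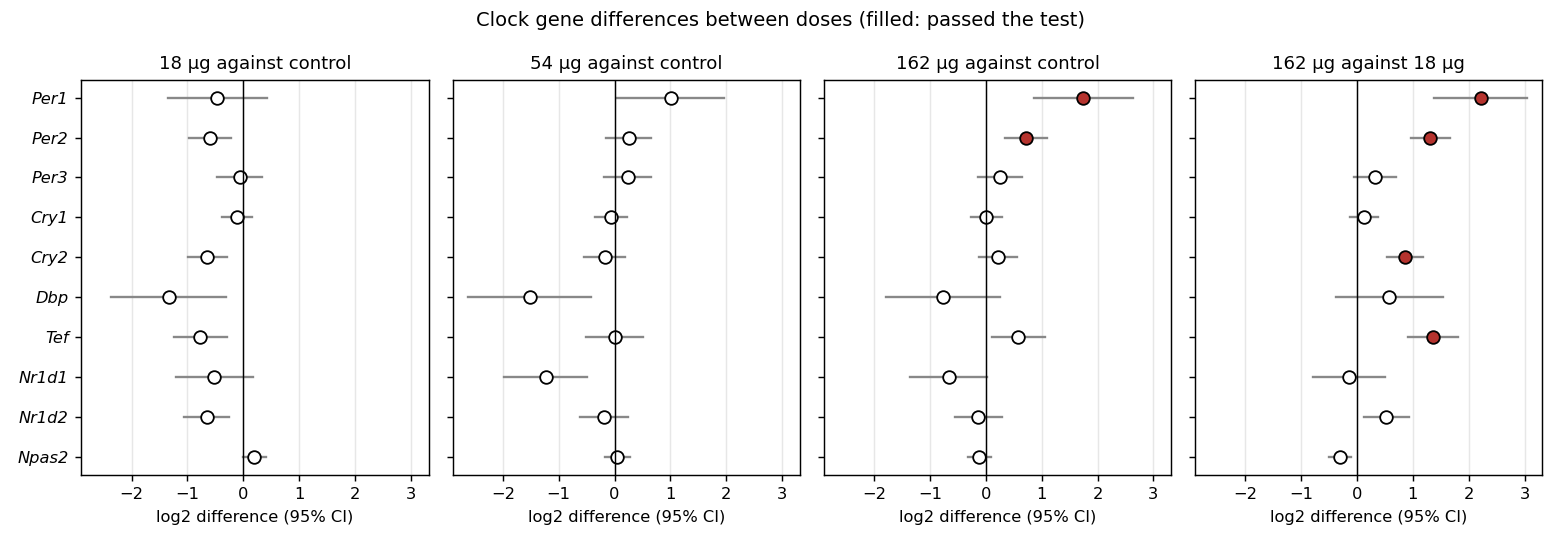
Log2 difference (horizontal axis) of each clock gene (rows) in 4 comparisons, with 95% confidence intervals from limma, filled where the difference was called. Filled points stand only for Per1 and Per2 at 162 µg against control and for Per1, Per2, Cry2 and Tef at 162 µg against 18 µg.

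Against vehicle controls, 2 of 10 members were called at 162 µg, both of them Period genes and both higher, beside 5.08% of expressed probes called. The 3 comparisons with control share the same 5 control mice. Per1 in controls was -0.19, 2.43, 1.21, -0.63 and -0.56 in replicates 1 to 5. Replicates 2 and 3 were thus far above the other controls, and 3 of 6 mice at 162 µg exceeded every control. The fitted difference was 1.75 (standard error 0.42, adjusted p = 0.0209), or 3.36-fold. On the 4 slides that held both groups it ranged from -0.12 to 3.43 and was positive on 3. Of the 7 slides, 2 held no control. Per2 in controls was 1.14, 0.96, 1.14, 0.33 and 0.60, and 5 of 6 mice at 162 µg exceeded every control. Its difference was 0.71 (standard error 0.18, adjusted p = 0.0243), or 1.64-fold, and lay between 0.62 and 1.19 on the same 4 slides.

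Both calls against control were less stable than those against 18 µg. That of Per1 was lost in limma without control replicate 4, control replicate 5 or 162 µg replicate 3, with an adjusted p of up to 0.0876 and a difference between 1.42 and 1.44 in those fits. That of Per2 was lost without control replicate 2, 3 or 5 or 162 µg replicate 1, 2 or 3, with an adjusted p of up to 0.0965 and a difference between 0.60 and 0.72 in those fits.

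Cry2 showed the reverse case, a small difference with complete separation. Its control values were 1.61, 1.98, 1.85, 1.72 and 1.69, so that all 6 mice at 162 µg exceeded all controls, although the fitted difference was only 0.22 (standard error 0.16, adjusted p = 0.548). It was the 1 member of 10 without overlap there, where 5.95% of expressed probes did not overlap. Its sign depended on the scaling, since the difference was -0.07 with arrays centred on their median and -0.09 without normalization. Tef in controls was 1.69, 2.27, 2.28, 0.68 and 1.18 and differed by 0.59 (standard error 0.23, adjusted p = 0.160). Dbp and Nr1d1 stood on the other side, with fitted differences of -0.76 (0.49, adjusted p = 0.470) and -0.67 (0.33, adjusted p = 0.301). The difference of Per3 was 0.26, those of Cry1 and Nr1d2 were within 1 standard error of 0, and Npas2 was near the limit of detection.

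At 18 µg no member was called against control, beside 1.48% of expressed probes, although 5 of 10 had an unadjusted p under 0.05 in limma, as had 20.1% of expressed probes. The fitted difference was negative in 9 of 10 members, with a median of -0.56 beside -0.01 over all expressed probes. With the Cy5 signal alone, 7 of 10 were negative. Cry2 was nearest to the threshold: all 6 mice lay below all controls, and the difference was -0.64 (standard error 0.16, adjusted p = 0.0577). It was the 1 member without overlap, where 2.69% of expressed probes did not overlap. The differences of Tef, Nr1d2 and Per2 were -0.77, -0.66 and -0.60 (adjusted p = 0.0941, 0.0983 and 0.101). Dbp had the largest difference, -1.34 (standard error 0.49, adjusted p = 0.178), with a second probe at -1.08. Per1 had -0.46 (0.42, adjusted p = 0.672), which became 0.10 without control replicate 2, and the 1 positive value was that of Npas2, whose probe was well above background on only 1 of 5 control arrays and 2 of 6 at 18 µg.

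At 54 µg no member was called either, beside 0.251% of expressed probes, and 3 of 10 had an unadjusted p under 0.05 in limma, beside 11.0% of expressed probes. No member separated completely from the controls, as 2.36% of expressed probes did. Nr1d1, which represses Arntl, was -0.42, 0.17 and 0.77 (lowest, median, highest) at 54 µg and 2.10, 1.5, 2.03, 1.08 and 0.25 in the controls. Thus 4 of 5 mice fell below every control, and the difference was -1.23 (standard error 0.35, adjusted p = 0.210). Dbp was -1.26, -0.80 and -0.36 at 54 µg, again with 4 of 5 mice below every control, and differed by -1.52 (0.52, adjusted p = 0.338). Per1 differed by 1.00 (0.45, adjusted p = 0.555) over 4 mice, because the spot of 1 mouse was marked as an outlier. In a fit of these 2 groups alone, Dbp and Nr1d1 passed (-1.86 and -1.22, limma adjusted p = 0.0312 and 0.0263). With slide as a term, these 2 differences rest on the 3 slides that held both groups. That fit called 919 expressed probes, beside 99 in the main fit.

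Between adjacent doses no member was called. From 18 to 54 µg, 6 of 10 members had an unadjusted p under 0.05 in limma, as had 12.4% of expressed probes, of which 0.0203% were called. The largest differences were those of Per1 at 1.47 (standard error 0.42, adjusted p = 0.246), Per2 at 0.85 (0.18, adjusted p = 0.111) and Tef at 0.77 (0.23, adjusted p = 0.252). From 54 to 162 µg, 3 of 10 had an unadjusted p under 0.05, as had 10.2% of expressed probes, of which 0% were called. The difference was 0.74 for Per1, 0.58 for Tef, 0.46 for Per2 and 0.40 for Cry2.

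Cry1 and Npas2 were near the limit of detection. Cry1, the partner of Cry2, was not well above background on any array of the controls, 18 µg or 54 µg and was so on 3 of 6 arrays at 162 µg, and no fold is given for it. Npas2, which can stand in for Clock, was well above background on 1 or 2 arrays of each group. Nr1d2 had a value in 18 of 22 mice, the other spots being marked as outliers.

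The promoter windows of the genes that were higher at 162 µg than at 18 µg are shown for the letters the clock reads. RefSeq (GRCm38.p6) gave windows of 300 bases, from 250 before to 50 after a start, for 9 of 10 members. No window was given for Per2. The E-box CACGTG, the E-prime box CACGTT, the D-boxes TTATGTAA and TTACGTAA, the cAMP response element TGACGTCA and the RORE core TAGGTCA were searched on both strands, and none of these overlap one another where found. Matches are in capitals, read on the gene's strand, so that AACGTG is an E-prime box on the other strand. The windows of Per1 (chr11:69098699-69098998, plus strand), Tef (chr15:81802423-81802722 and chr15:81811164-81811463, plus strand) and Cry2 (chr2:92434020-92434319, minus strand) follow.
Per1: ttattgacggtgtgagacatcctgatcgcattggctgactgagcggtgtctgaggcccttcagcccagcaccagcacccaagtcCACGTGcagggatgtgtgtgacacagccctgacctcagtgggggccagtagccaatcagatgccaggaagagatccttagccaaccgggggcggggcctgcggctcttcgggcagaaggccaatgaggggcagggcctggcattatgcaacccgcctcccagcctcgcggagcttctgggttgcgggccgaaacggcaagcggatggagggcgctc
Tef, upstream start: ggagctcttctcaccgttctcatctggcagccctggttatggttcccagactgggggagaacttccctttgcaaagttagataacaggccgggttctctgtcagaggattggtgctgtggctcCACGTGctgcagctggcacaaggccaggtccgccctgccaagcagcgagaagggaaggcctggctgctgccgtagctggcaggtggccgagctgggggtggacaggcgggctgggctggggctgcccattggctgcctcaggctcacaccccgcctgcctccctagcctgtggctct
Tef, downstream start: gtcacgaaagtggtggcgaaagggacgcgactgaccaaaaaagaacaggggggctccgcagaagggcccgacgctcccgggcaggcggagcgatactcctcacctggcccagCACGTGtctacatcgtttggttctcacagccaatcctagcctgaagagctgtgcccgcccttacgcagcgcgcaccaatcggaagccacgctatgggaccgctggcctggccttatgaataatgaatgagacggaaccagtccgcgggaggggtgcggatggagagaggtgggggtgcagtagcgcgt
Cry2: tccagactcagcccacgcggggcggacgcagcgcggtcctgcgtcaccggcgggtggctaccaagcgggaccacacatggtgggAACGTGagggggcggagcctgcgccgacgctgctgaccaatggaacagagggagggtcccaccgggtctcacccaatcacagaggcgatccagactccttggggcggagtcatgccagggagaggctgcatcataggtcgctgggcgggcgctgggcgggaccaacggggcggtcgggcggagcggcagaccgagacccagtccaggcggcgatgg
One E-box lay in the Per1 window and in each Tef window, and 1 E-prime box in that of Cry2. Among all 32851 windows, 7.15% held an E-box and 4.68% an E-prime box. A second Per1 window (chr11:69099902-69100201) held no match, and none of the 11 windows of the members held TTACGTAA, the cAMP response element or the RORE core, which were in 0.119%, 1.79% and 2.61% of all windows. These are letters within 300 bases and not measured sites.

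Of the members not called, Nr1d1 (chr11:98775328-98775627, minus strand) and Per3 (chr4:151044616-151044915, minus strand) are shown, the first for its E-prime box near the start and the second because it alone of the 9 held the D-box TTATGTAA, on which Dbp and Tef act.
Nr1d1: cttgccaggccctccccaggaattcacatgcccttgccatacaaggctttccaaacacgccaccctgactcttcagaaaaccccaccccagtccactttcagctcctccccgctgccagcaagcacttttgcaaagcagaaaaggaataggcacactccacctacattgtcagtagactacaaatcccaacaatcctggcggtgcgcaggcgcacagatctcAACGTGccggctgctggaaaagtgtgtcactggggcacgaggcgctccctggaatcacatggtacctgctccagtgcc
Per3: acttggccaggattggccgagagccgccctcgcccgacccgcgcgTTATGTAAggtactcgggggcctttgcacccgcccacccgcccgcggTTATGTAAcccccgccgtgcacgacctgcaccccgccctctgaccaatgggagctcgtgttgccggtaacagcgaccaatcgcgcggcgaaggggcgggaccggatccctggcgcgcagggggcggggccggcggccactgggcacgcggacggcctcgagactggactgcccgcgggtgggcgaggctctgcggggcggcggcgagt
Per3 held 2 copies of this D-box, which 0.938% of all windows held at least once. Cry1 had 1 E-box and 1 E-prime box, and no searched letters were in the windows of Dbp, Npas2 and Nr1d2.

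Mice of the same dose differed widely in some clock genes and little in others. The SD within groups was 0.89 for Dbp, 0.76 for Per1, 0.62 for Nr1d1 and 0.53 for Tef, which placed these genes at percentiles 98.8, 97.7, 95.3 and 92.1 among expressed genes, whose median SD was 0.28. Nr1d2, Per3 and Per2 had an SD of 0.42 to 0.45, and Cry2, Cry1 and Npas2 of 0.30, 0.21 and 0.15, at percentiles 56.5, 21.0 and 3.84. These SDs pool the 4 groups. Group by group, that of Per1 was 1.33 in controls and 0.33, 0.63 and 0.43 at 18, 54 and 162 µg. Dbp in controls was 1.54, 0.59, 1.61, -0.38 and -0.47 in replicates 1 to 5. At 162 µg it was 0.00, 0.52, -1.49, -1.5, 0.77 and 0.79 in replicates 1 to 6. In each of these groups 2 mice were thus far below the rest of their group.

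The lungs with low Dbp had high Arntl. Arntl, the activator at the head of the loop, was -0.03, 0.07, -0.78, 0.85 and 0.83 in the same controls, and -0.65, -0.59, 0.07, 0.00, -1.11 and -1.03 in the same mice at 162 µg. The 2 controls with the lowest Dbp had the highest Arntl, and so did the 2 mice at 162 µg. After centring on dose group means, Pearson's r of Dbp with Arntl over 22 mice was -0.826 and Spearman's rho -0.798 (permutation p = 6e-05 for each, adjusted p = 0.0009). Of 14972 other genes with a value in every mouse, none had a lower r.

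**Figure D3:**
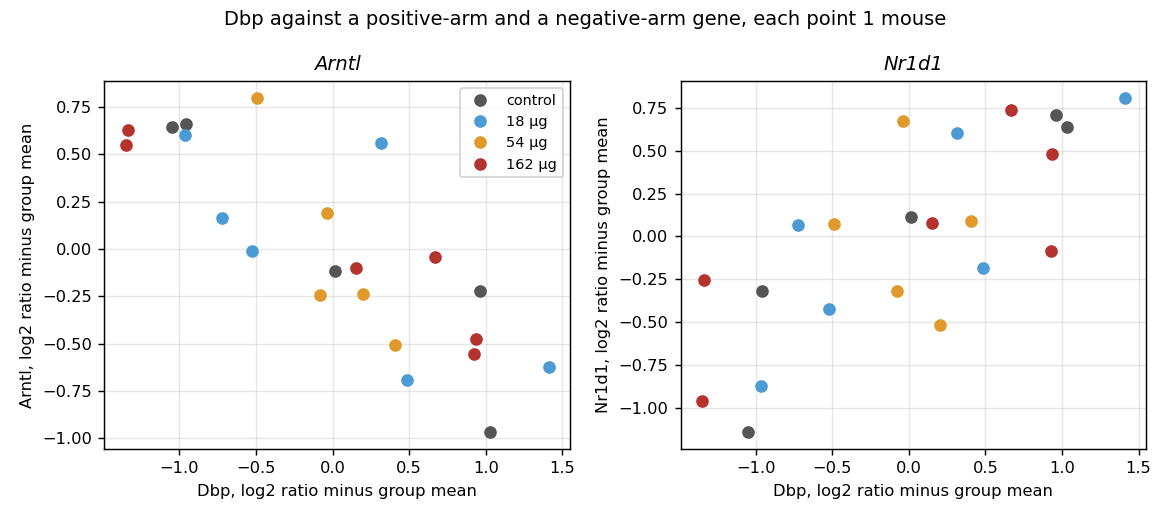
Log2 ratio of Arntl (left, vertical axis) and Nr1d1 (right, vertical axis) against that of Dbp (horizontal axis), each minus its dose group mean, each point 1 of 22 mice coloured by dose. Arntl fell as Dbp rose (r = -0.826), with mice of every dose along the trend. Nr1d1 rose with Dbp over all mice (r = 0.754), but not within the 54 µg group. There replicate 5 had the lowest Nr1d1, -0.42 before centring, at a Dbp of -0.57, above the group median of -0.80.

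Other genes of the negative arm and of the D-box family moved with Dbp. In all 15 relations with Dbp were computed, those of the 9 other members and of Arntl, Clock, Nfil3, Bhlhe40, Hlf and Ciart, and p came from 100000 shuffles of mice within dose groups. Nr1d1 had r = 0.754 and rho = 0.754 (permutation p = 0.00043 and 0.00035, adjusted p = 0.00295 and 0.00262), the second highest r among the genes with a value in every mouse. Nr1d2 had r = 0.675 and rho = 0.614 over 18 mice (permutation p = 0.0135 and 0.0265, adjusted p = 0.0306 and 0.0498). Hlf had r = 0.657 and rho = 0.677 (permutation p = 0.00059 and 0.00168, adjusted p = 0.00295 and 0.0084).

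Tef had r = 0.627 and rho = 0.561 (permutation p = 0.00523 and 0.0159, adjusted p = 0.0157 and 0.0478), and Per2 had r = 0.611 and rho = 0.639 (permutation p = 0.00464 and 0.00338, adjusted p = 0.0157 and 0.0127). Ciart, a further repressor of the loop, had r = 0.521 and rho = 0.488 (permutation p = 0.0143 and 0.0233, adjusted p = 0.0306 and 0.0498). Nfil3, the repressor at D-boxes, ran the other way, with r = -0.574 and rho = -0.555 (permutation p = 0.0215 and 0.0257, adjusted p = 0.0403 and 0.0498). Of the 15 relations, 8 passed, 6 of them positive.

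Per1 and Cry2, called between doses, did not pass here, with r = 0.361 (rho = 0.423, adjusted p = 0.215 and 0.139) and r = 0.268 (rho = 0.336, adjusted p = 0.101 and 0.139, permutation). The other 5 relations, with Per3, Cry1, Npas2, Clock and Bhlhe40, had r between -0.396 and 0.239 and adjusted permutation p from 0.132 to 0.907. Without the 2 mice farthest from the median of Dbp, replicates 3 and 4 at 162 µg, r was -0.801 for Arntl, 0.733 for Nr1d1, 0.617 for Hlf, 0.578 for Tef, 0.636 for Per2, 0.481 for Ciart and -0.437 for Nfil3. Nr1d2 had no value in replicate 4 at 162 µg. Its r was 0.577 without the 2 farthest of its own 18 mice. With slide removed as well as dose, r was -0.858 for Arntl, 0.800 for Nr1d1, 0.790 for Nr1d2, 0.657 for Tef, 0.612 for Hlf, 0.540 for Per2, 0.409 for Ciart and -0.529 for Nfil3. Clock then reached -0.609, from -0.166 with slide kept.

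The genes most like Dbp over the 22 centred values were Cyp2d9 (r = 0.83), Nr1d1, Tex11 (0.738), Fam76a (0.709) and Tspan4 (0.701), and those least like it were Arntl, Myef2 (-0.732), H3f3a (-0.709), Gpr89 (-0.684) and Gtf2h3 (-0.683), given as a description with no test. The mice share one reference RNA and, by slide, a hybridisation.

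**Figure D4:**
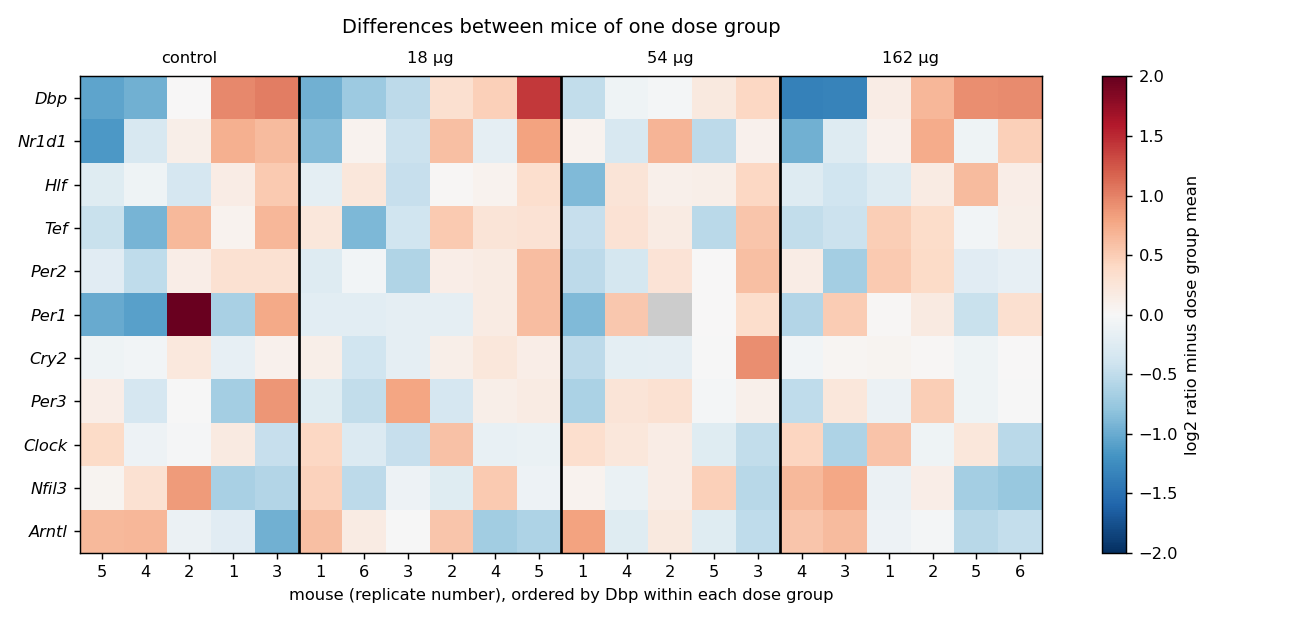
Log2 ratio of clock genes (rows) in each mouse (columns, by replicate number) minus the mean of its dose group, with mice ordered by Dbp within each group (grey: no value). Arntl, in the bottom row, runs opposite to Dbp and Nr1d1, in the top rows, and the 2 lowest Dbp values at 162 µg are replicates 4 and 3.

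The genes most like Per1 were taken over uncentred values, with dose kept, and so cannot be set against those most like Dbp. Over 21 mice the ratio of Per1 was most like those of Csrnp1 (r = 0.913), Map3k6 (0.910), Errfi1 (0.910), Rgcc (0.909) and Zbtb16 (0.903), again with no test. Among the clock genes the r with Per1 was 0.797 for Tef, 0.759 for Per2 and 0.728 for Cry2, and 0.26 for Dbp and 0.01 for Nr1d1. It was 0.628 for Hlf, 0.602 for Rora, 0.594 for Per3 and 0.566 for Usp2. Negative values were those of Arntl at -0.66, Clock at -0.36 and Npas2, near the limit of detection, at -0.551, among others. Errfi1, an inhibitor of epidermal growth factor receptor signalling, and Zbtb16, a zinc finger factor, both belong to a list of 15 glucocorticoid-induced genes that was examined because glucocorticoids act on Per1. The list was chosen with earlier results of these data known, so its calls are a description and no independent test.

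Of these 15 genes, 10 were called higher at 162 µg than in controls and none lower, with a median of 1.31 beside -0.01 over expressed probes and 5.08% of expressed probes called. The 4 largest were Mt2 at 4.79 (standard error 0.38, limma adjusted p = 5.01e-06) and Mt1 at 2.94 (0.30, adjusted p = 9.39e-05), metallothioneins that metals and cytokines also induce, Angptl4 at 2.67 (0.43, adjusted p = 0.00167), a regulator of lipid uptake, and Fkbp5 at 2.28 (0.35, adjusted p = 0.00111), a chaperone of the glucocorticoid receptor. Against 18 µg, 13 of 15 were called higher at 162 µg, with a median of 1.69, beside 3.46% of expressed probes called. At 54 µg 2 were called higher than in controls, beside 0.251% of expressed probes called. At 18 µg none was higher and 1, Klf9, was lower (-0.66, standard error 0.13, limma adjusted p = 0.0269), beside 1.48% of expressed probes called.

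The mean log2 ratio of the 15 genes was between 1.82 and 2.32 in the 6 mice at 162 µg and between -0.03 and 0.47 in the 6 mice at 18 µg. Control replicate 2, whose Per1 of 2.43 stood apart, had a list mean of 1.52, whereas the other controls had -0.33 to 0.26. At 54 µg replicate 1 had a list mean of 0.39 and the lowest Per1 of its group, 0.31, and the other 4 mice had 1.27 to 1.75. Control replicate 3 combined a Per1 of 1.21 with a list mean of 0.26.

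**Figure D5:**
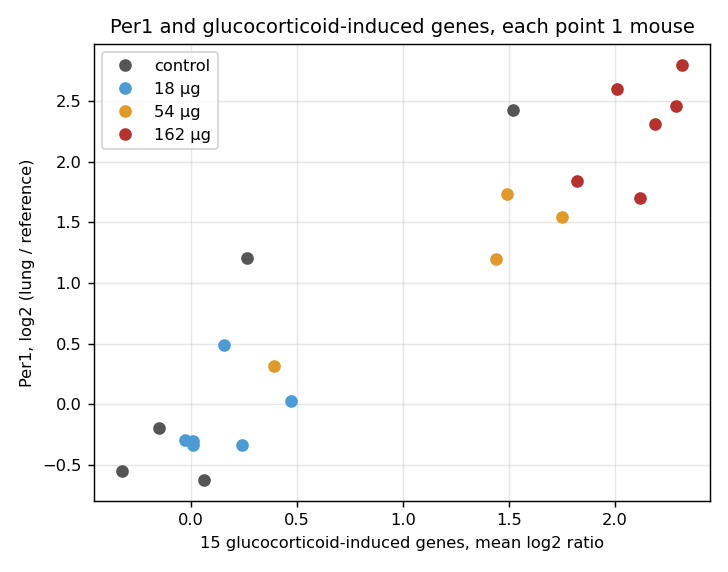
Log2 ratio of Per1 (vertical axis) against the mean log2 ratio of 15 glucocorticoid-induced genes (horizontal axis) in the 21 mice with a Per1 value, coloured by dose. The 6 mice at 162 µg lie at 1.82 to 2.32 on the horizontal axis, and 1 control lies apart from the others at 1.52 with a Per1 of 2.43.

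Of 11 expressed targets of cAMP signalling, 2 were called higher at 162 µg than in controls, Junb at 0.90 (standard error 0.21, limma adjusted p = 0.0187), a subunit of AP-1, and Sik1 at 0.73 (0.21, adjusted p = 0.0451), a kinase. The median of the 11 was 0.30, and 5.08% of expressed probes were called in that comparison. None of the 11 was called between 162 and 18 µg, where their median was -0.01 and 3.46% of expressed probes were called.

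The median over 18 other expressed clock genes was 0.21 at 162 µg against 18 µg. Where 3.46% of expressed probes were called, 3 of these genes were called higher and none lower. They were Usp2, a deubiquitinase of clock proteins, at 1.42 (standard error 0.21, limma adjusted p = 0.00113), the D-box activator Hlf at 0.71 (0.18, adjusted p = 0.0299), and Rora, which activates Arntl, at 0.71 (0.15, adjusted p = 0.0115). Against control, Usp2 was called lower at 18 µg (-1.28, standard error 0.23, limma adjusted p = 0.0164), where 1.48% of expressed probes were called. None of these clock genes was called at 54 or 162 µg. Arntl itself was -0.57 (0.31, adjusted p = 0.360) at 162 µg.

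Markers of some lung cell types moved with dose. Of all expressed probes, 5.08% were called at 162 µg and 1.48% at 18 µg against control, and 3.46% between 162 and 18 µg. In bulk RNA, fewer cells of a type and less RNA per cell cannot be told apart. The mean log2 ratio of 6 ciliated cell markers lay between 3.45 and 3.86 in controls. It lay between 1.64 and 3.96 in mice given 18 µg, between 2.59 and 3.68 with 54 µg and between 1.43 and 3.49 with 162 µg, and 2 of 6 were called lower at 162 µg than in controls. Between 162 and 18 µg none of these 6 was called, with differences from -0.40 to 0.55 and a median of 0.00. Of 3 B cell markers, 2 were called lower at 162 µg than in controls and than at 18 µg, with mean ratios between 1.13 and 2.01 in controls, between 0.89 and 2.08 in mice given 18 µg and between -0.18 and 1.11 in mice given 162 µg. The 6 neutrophil markers had mean ratios of 2.63 to 5.26 at 162 µg, and none was called. Control replicate 2, set apart by its Per1 and its glucocorticoid-induced genes, had the highest neutrophil ratio of its group, 5.36, whereas the other controls had 2.40 to 3.04. Of the further types, Marco of alveolar macrophages (1 of 5 markers) and Pdpn of type I cells (1 of 5) were called higher at 162 µg than in controls, at 1.51 and 1.04 (limma adjusted p = 0.00458 and 0.00667), and Cyp2f2 of club cells (1 of 2 expressed markers) lower, at -1.0 (adjusted p = 0.00507). Chil3 of alveolar macrophages was called higher at 18 µg, at 1.73 (adjusted p = 0.0454). In the comparisons of each dose with control and of 162 with 18 µg, no marker of type II cells, endothelium, smooth muscle, eosinophils or T cells was called. The part of glucocorticoids, of cell composition, of signal over background and of the hour of killing in the clock gene differences was not tested.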

How the data were processed

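Dual-colour Agilent arrays of the mm9 build were used for the lung RNA of 22 mice. The authors deposited intensity values, a Cy5 and a Cy3 median signal for every spot, before any background subtraction or normalization (Feature Extraction 10.7.3.1, as the headers state). The authors also deposited log2 ratios, 1 value per probe, with a median near 0 on each array and whose normalization is not given in the sources used here. They were used as an alternative.

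Outlier spots were left out, log ratios were normalized within arrays by loess (span 0.3), and replicate spots were summarised by their median. Probes were named through RefSeq accessions (26413 of 55681), and a gene stands for its brightest probe. Groups came from the sample labels. limma 3.58.1 in R 4.3.3 was fitted to all probes with dose and slide (12 residual degrees of freedom), with p adjusted by Benjamini and Hochberg. A probe was expressed if its Cy5 signal exceeded the trimmed mean (5%) plus 3 trimmed SD of the 308 negative controls, in at least 80% of arrays within a group (39430 probes). Correlations used numpy 2.4.6. Promoters came from RefSeq, GRCm38.p6. No 2 arrays held identical values, and the highest correlation between arrays was 0.959. Nothing in the sources used here names littermates or cages.

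The members and the gene lists were chosen with earlier results of these data known, and 1 listed gene is not reported here. The members, other clock genes when called or correlated, up to 4 called genes of the other lists and the 5 genes most and least like Dbp or most like Per1 are named. Crem is named besides, as the lowest of its list. Other scalings, background correction, slide terms, filters, thresholds and left-out mice were tried as alternatives.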

Additional observations from a re-analysis of the deposited data

Results flagged for a closer look

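Of 40 sets of values, those of the 10 clock genes in the 4 dose groups, 1 held a mouse far from the rest of its group, where chance marks about 1 in 20. Cry1 in replicate 3 at 18 µg had a log2 ratio of -0.78, while the other 5 mice lay between -0.20 and 0.04, and the gap made up 0.702 of the range. Cry1 was not well above background on that array.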

How the results depend on the processing

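At 162 µg against control the 2 calls became 0 with arrays centred on their median, without normalization and in the deposited log2 table, and 1 with the Cy5 signal alone, without the slide term, with the replicate block in place of slide and in a fit of those 2 groups only. With single mice left out they numbered 0 to 3. At 162 µg against 18 µg the 4 calls became 1 without normalization and stayed at 4 with any mouse left out. At 18 µg against control the count rose from 0 to 1, Cry2, with slide as a random block, with p adjusted over expressed probes and with the mean over the expressed probes of a gene, and was 0 to 1 with single mice left out. At 54 µg against control the count rose to 2 in a fit of those groups only, where called expressed probes rose from 99 to 919. Between 162 and 54 µg it was 0 to 1 with single mice left out. The F test over all groups gave 2 of its 4 calls with arrays centred on their median and 0 without normalization. The cause was not tested.

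Of differences beyond 1 standard error, Cry2 at 162 µg against control turned to -0.0722 with arrays centred on their median and to -0.0905 without normalization, Npas2 in that comparison to 0.00231 in the deposited log2 table, and Per1 at 18 µg against control spanned -0.81 to 0.10 with single mice left out. Median centring moved the median of all expressed probes by -0.14 at 18 µg and -0.11 at 162 µg against control. Called probes that were higher made up 48.6% at 162 µg against control and 21.7% after median centring, and 66.1% and 95.4% at 162 µg against 18 µg. Same-numbered mice of different groups correlated between -0.17 and 0.63 in 31 pairs, with a median of 0.172 and 20 pairs above 0.1. Differently numbered mice had a median of -0.0558 in 150 pairs, 40 of them above 0.1. Same-numbered mice on different slides had a median of 0.105 in 20 pairs. Replicate numbers were not taken as a pairing in the main fit. The replicate block in place of slide left 1 call at 162 µg against control. Leaving out the 2 arrays of lowest signal, an alternative chosen after seeing the data, changed no count of calls. Quantile normalization of average intensities leaves log ratios as they are, and scan date, which marked the same arrays as slide, was not run apart. Cry1 and Npas2 are limited by signal over background.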
